A study of Sus scrofa with 4 samples.

Results

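The genes described are those of the extracellular matrix chains and their receptors on a porcine array: collagens, laminins, fibronectin and integrins. They were taken by symbol from the platform table, as every probe whose symbol begins with COL, a number and A, with LAMA, LAMB or LAMC and a number, or with ITGA or ITGB, and every probe for FN1. This gave 60 genes of 10024 with a symbol, measured by 76 of 43794 probes, of which 13146 carried a symbol. By family there were 33 collagen probes (29 genes), 9 laminin probes (8 genes), 3 fibronectin probes (1 gene), 16 integrin alpha probes (14 genes) and 11 integrin beta probes (6 genes). The other 4 probes matched by letters only. COL4A3BP encodes a ceramide transfer protein, and ITGBL1 encodes a secreted protein with integrin beta-like repeats, so both are counted with the members but kept apart from the families. No probe carried the symbol LAMA1, LAMA5 or ITGAV, so these laminin chains and integrin alpha V could not be described.

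The study compared pools of Sus scrofa blastocysts on 4 two-colour arrays. On each array 1 pool of 10 blastocysts from oocytes exposed to high NEFAs (non-esterified fatty acids, which circulate when fat stores are broken down) was set against 1 pool of 10 blastocysts from control oocytes. Dyes were swapped: Cy3 carried the high NEFA pool on replicates 1 and 2, and Cy5 carried it on the other two. Pools came from days 7 and 8, with no day given per array. The title also mentions culture on GCs, an abbreviation that is not spelled out and not tied to either kind of pool. The labels name total RNA, but the protocol text describes genomic DNA cut with methylation-sensitive enzymes. Which was hybridised cannot be told from the labels, and only for RNA would the ratios be differences in transcript level. The arrays are labelled as biological replicates without naming separate sows, so the p-values reflect only how these pools varied, which may be technical. In pooled embryos, fewer cells of a type and less RNA per cell cannot be told apart. The files name no genome build, so no positions are given.

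A basement membrane is a sheet of collagen IV and laminin on which epithelia rest. Laminins are trimers of an alpha, a beta and a gamma chain, and collagen IV is a trimer of 3 alpha chains. In the blastocyst, laminin and collagen IV lie between the inner cell mass, the endoderm and the trophectoderm. Integrins are cell surface receptors made of 1 alpha and 1 beta chain. The alpha 5 beta 1 pair binds fibronectin, the alpha 6 beta 1 pair binds laminin, and pairs holding beta 3 or beta 5 bind proteins such as vitronectin and osteopontin. In pigs, integrins of the trophectoderm take part in the attachment of the conceptus to the uterine epithelium.

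Most collagen probes were near background in both kinds of pool, while the integrin beta chains were mostly detected. Detected means that the median foreground of a spot lay over 2 SD above the mean of the 153 negative controls in the same channel of that array. Of the 33 collagen probes, 9 (27.3%) were above background in at least 4 of the 8 channels and 3 (9.09%) in all 8. For laminins these were 4 of 9 (44.4%) and 1 of 9 (11.1%), and for integrin alpha chains 9 of 16 (56.3%) and 6 of 16 (37.5%). Of the integrin beta probes, 8 of 11 (72.7%) reached at least 4 channels and 6 (54.5%) reached all 8. Over all members 34 of 76 probes (44.7%) reached at least 4 channels and 19 (25.0%) all 8, against 56.0% and 31.7% of all probes on the array. Shares of so few probes per family are descriptions. Of the 76 probes, 42, 40, 28 and 29 were detected in high NEFA channels (replicates 1, 2, 3 and 4 in turn), against 26, 29, 47 and 45 in control channels. The larger number was thus in Cy3 on each array, whichever pool it held.

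**Figure D1:**
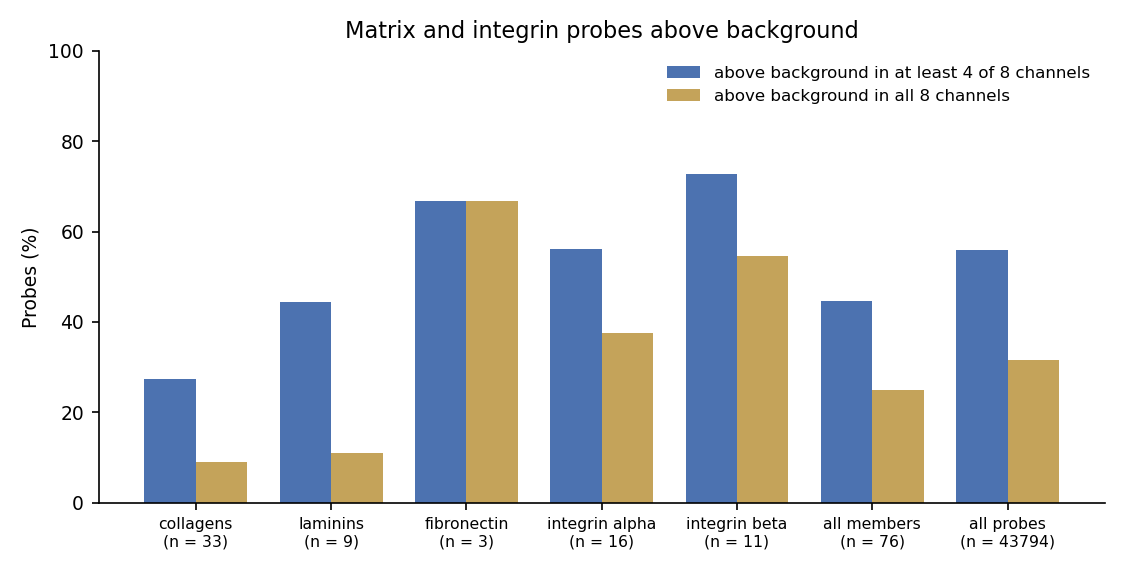
Percentage of probes above background in at least 4 of 8 channels (blue) and in all 8 channels (ochre), for each family, for all 76 members and for all 43794 probes. The collagen bars, at 27.3% and 9.09%, are the lowest pair, and the integrin beta bars reach 72.7% and 54.5%.

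No collagen, laminin, fibronectin or integrin probe passed the adjusted threshold. The 34 probes above background in at least 4 channels, for 25 genes, were tested in a limma fit over 24524 probes with an exposure and a dye coefficient. Ratios are log2 of high NEFA over control, and errors are SE with n = 4 arrays. At a Benjamini-Hochberg adjusted p under 0.05 there were 0 members, and 0% of all probes. At an unadjusted p under 0.05 there were 5 of 34 members (14.7%), against a background of 6.41% of all tested probes. These were a COL25A1 probe with a positive ratio (background 3.17% for positive ratios), and a COL4A1, the LAMB1, an ITGA2B and the ITGB5 probe with negative ratios (background 3.24%). Each had an adjusted p of 0.764. With so few members, 5 probes is a small number, and no test was made of the list. No member reached both an unadjusted p under 0.05 and a 1.5-fold difference, a threshold that 0.359% of all tested probes passed.

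Of the 34 tested members, 14 had a positive and 20 a negative fitted ratio, with a range of -0.45 to 0.35. Their median was -0.03, against -0.01 for all tested probes. The median over members was -0.09, -0.05, -0.15 and -0.07 on replicates 1 to 4. By family the median was 0.02 for 9 collagen probes, -0.24 for 4 laminin probes, -0.04 for 2 fibronectin probes, -0.05 for 9 integrin alpha probes and -0.0044 for 8 integrin beta probes. All 4 tested laminin probes had negative fitted ratios. Their median on single arrays was 0.47, -0.18, -0.84 and -0.66 on replicates 1 to 4, so the sign on replicate 1 was opposite to that on the other arrays. The probes above background in all 8 channels had 7 positive and 12 negative ratios.

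**Figure D2:**
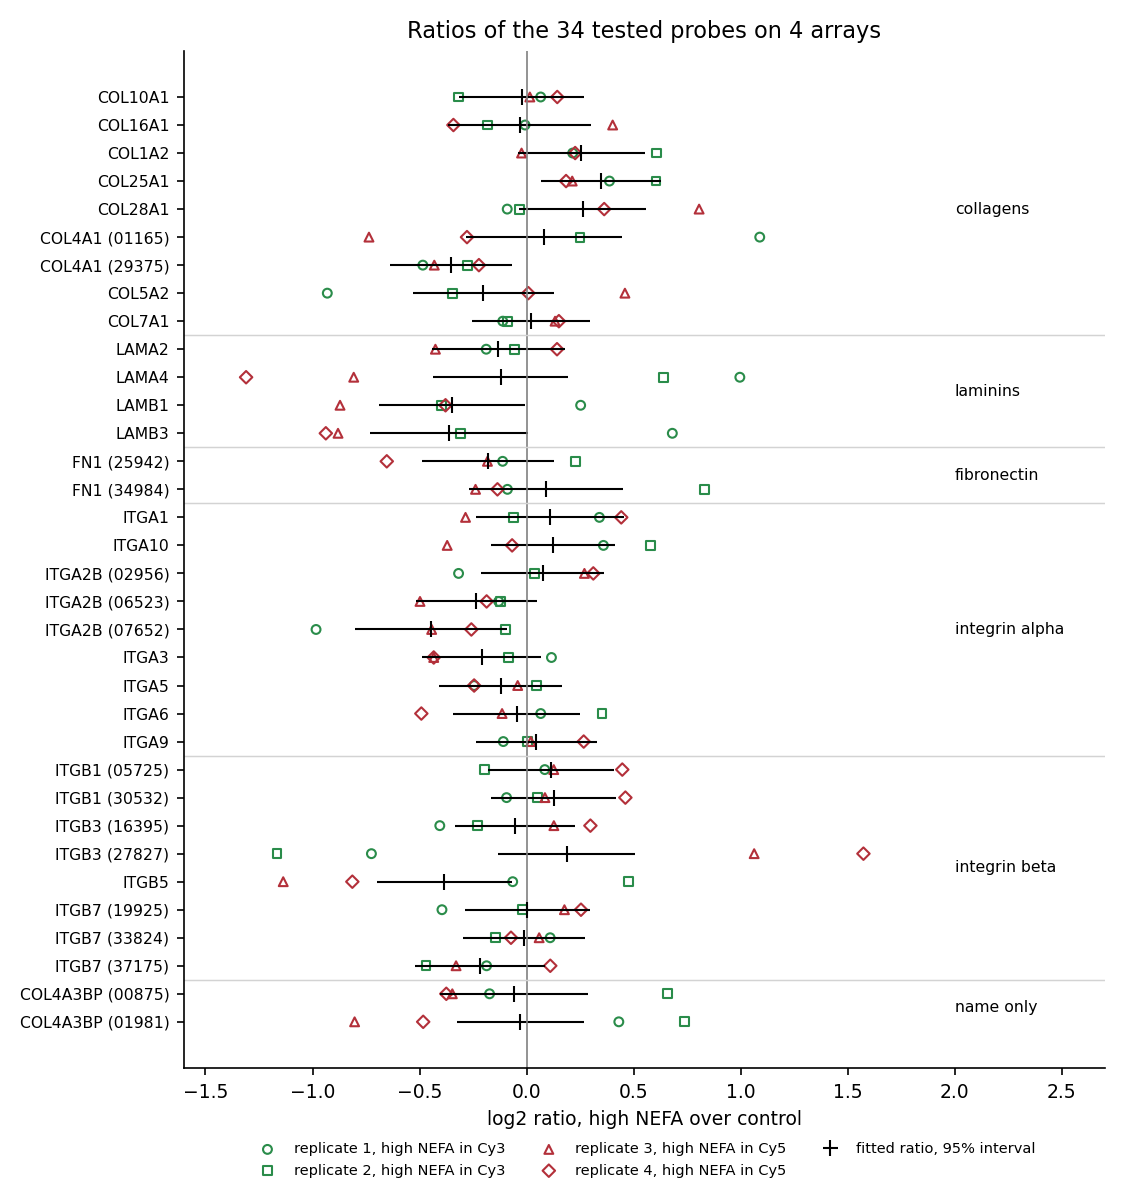
Log2 ratio of high NEFA over control for the 34 tested probes, by family. Open symbols are the 4 arrays (green with the high NEFA pool in Cy3, red with it in Cy5), and black bars are the fitted ratio with its 95% interval. The intervals of 5 probes (COL25A1, COL4A1 EMPV1_29375, LAMB1, ITGA2B EMPV1_07652 and ITGB5) lie off 0, and green and red symbols fall on opposite sides for LAMA4 and ITGB3 EMPV1_27827.

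Among the matrix chains, collagen IV was represented above background by COL4A1, which encodes the alpha 1 chain shared by most collagen IV networks. Its 2 probes, both above background in all 8 channels, had fitted ratios of opposite sign, a difference that was not tested. Probe EMPV1_29375 had log2 intensities of 7.97, 7.93, 8.06 and 8.36 in the high NEFA pools, against 8.46, 8.21, 8.49 and 8.58 in the control pools. The high NEFA value was the lower one on each array, although the ranges overlapped. Its ratio was -0.35 ± 0.13 (unadjusted p 0.0194, adjusted p 0.764 by limma), with a 95% interval of -0.64 to -0.07. Computed from mean in place of median pixel intensity, the same spot had a ratio of -0.00026 ± 0.03. Probe EMPV1_01165 had 8.99, 8.38, 8.32 and 8.22 in the high NEFA pools, against 7.90, 8.13, 9.06 and 8.50 in the control pools. On all 4 arrays the Cy3 channel was the brighter, so the array ratios of 1.09, 0.25, -0.74 and -0.28 turned sign with the dye. Its fitted ratio was 0.08 ± 0.16 (unadjusted p 0.632), and -0.02 ± 0.08 with mean pixel intensity.

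COL4A2, the usual partner chain of COL4A1, was detected in 1 of 4 high NEFA channels and in 1 of 4 control channels and was not tested. The chains of the specialised networks were also below the filter. COL4A3 and COL4A6 were each detected in 0 of 4 high NEFA channels and in 1 of 4 control channels, COL4A4 in 1 and 2, and COL4A5 in 1 and 0.

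COL25A1, a membrane-spanning collagen best known from neurons, was the only tested member with no overlap between the 2 kinds of pool, as were 0.905% of all tested probes. Its log2 intensities were 8.03, 8.24, 8.04 and 7.93 in the high NEFA pools, against 7.65, 7.64, 7.83 and 7.74 in the control pools. The ratio was 0.35 ± 0.12 (unadjusted p 0.0198, adjusted p 0.764 by limma), with a 95% interval of 0.07 to 0.63. The probe was dim, being detected in 3 of 4 high NEFA channels and in 1 of 4 control channels. With mean pixel intensity its ratio was -0.04 ± 0.03, so the direction rests on the choice of pixel summary.

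The other tested collagens did not pass any threshold. COL1A2, a chain of the fibrillar collagen I of connective tissue, had a ratio of 0.26 ± 0.13 and COL28A1 one of 0.26 ± 0.13, each above background in 4 of 8 channels. The array ratios of COL28A1 were -0.09, -0.03, 0.81 and 0.36, so their sign turned with the dye. COL5A2, a fibrillar chain that joins collagen I fibrils, had -0.20 ± 0.15 and the widest swing after the COL4A1 probe, from -0.93 on replicate 1 to 0.46 on replicate 3. COL16A1, a fibril-associated collagen, was the one other collagen above background in all 8 channels, with -0.03 ± 0.15. COL7A1, of the fibrils that anchor epithelia, had 0.02 ± 0.12, and COL10A1, a collagen of cartilage, -0.02 ± 0.13.

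The remaining 24 collagen probes were below the filter. COL1A1, the main chain of collagen I, was detected in 2 of 4 high NEFA channels and in 1 of 4 control channels. COL11A2 was detected in 3 of 4 high NEFA channels and in 0 of 4 control channels. Its mean intensity was 1.24-fold higher in the high NEFA pools, a difference open to dye bias and given without an SE. This is a plain difference of mean log2 intensities and not a lower bound, and the control signal was not above background. Replicate 2 ran the other way with a ratio of -0.13. COL11A2 was not in the tested set, and in the fit without the filter it was 1 of 9 members at an unadjusted p under 0.05. Of 17 member probes detected in 1 kind of pool only, 4 were detected in high NEFA pools and had the higher mean there. Another 12 were detected in control pools and had the higher mean there. For the remaining 1, ITGAE, the mean was lower in the high NEFA pools, where it was detected. These differences of means were not tested, and ranged from 1.01-fold for ITGA8 to 1.25-fold for an ITGBL1 probe, both brighter in control. A probe picked for detection in 1 kind of pool tends to have the higher mean there. The same share over all probes on the array was not counted, so these numbers are not a result about the members. Probes for COL5A1 (1 of its 2), COL8A1, COL8A2, COL15A1, COL17A1 and COL21A1 (1 of its 2) were above background in none of the 8 channels.

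LAMB1, the beta chain of the laminins of early basement membranes, was the laminin detected in all 8 channels. It had log2 intensities of 10.72, 10.50, 10.27 and 11.24 in the high NEFA pools, against 10.47, 10.90, 11.14 and 11.62 in the control pools. The high NEFA value was lower on replicates 2, 3 and 4 and higher on replicate 1, and the ranges overlapped. The fitted ratio was -0.35 ± 0.15 (unadjusted p 0.0462, adjusted p 0.764 by limma), with a 95% interval of -0.69 to -0.01. Without replicate 2 it was -0.19 and without replicate 3 it was -0.23, and with mean pixel intensity -0.20 ± 0.14. In each of these the unadjusted p was above 0.05, at 0.275, 0.254 and 0.229. Without the dye term the unadjusted p of LAMB1 by limma was 0.139. With plain subtraction, offset 16, a trend and robust prior or the deposited ratios it was 0.0509 to 0.0691. Under all other ways of processing tried it was below 0.05. LAMB3, a chain of the laminin under stratified epithelia, had array ratios of 0.68, -0.31, -0.88 and -0.94 and a fitted ratio of -0.36 ± 0.17 (unadjusted p 0.0542). It was detected in 2 of 4 high NEFA channels and in 3 of 4 control channels.

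LAMA4, an alpha chain known from blood vessels, had the widest spread of the laminins. Its probe EMPV1_32479 had log2 intensities of 8.32, 7.88, 7.23 and 7.13 in the high NEFA pools, against 7.33, 7.25, 8.04 and 8.44 in the control pools. The Cy3 channel was brighter on every array. The probe was detected in 2 of 4 high NEFA channels and in 2 of 4 control channels. Its Cy5 values were below the median of the negative controls in that channel, at 7.36, 7.35, 7.53 and 7.51 on replicates 1 to 4. The fitted ratio was -0.12 ± 0.14 (unadjusted p 0.410), beside a dye coefficient of -0.94 ± 0.14 (log2 of Cy5 over Cy3). LAMA2, the alpha chain of muscle laminin, had a ratio of -0.13 ± 0.14. LAMC1, the gamma chain that pairs with LAMB1 in most laminins, was detected in 1 of 4 high NEFA channels and in 2 of 4 control channels and was not tested. The same counts held for the second LAMA4 probe. LAMB2 and LAMC3 were detected in 0 of 4 high NEFA channels and in 2 of 4 control channels. Their array ratios were 0.61, 0.45, -1.03 and -0.94 for LAMB2 and 0.20, 0.47, -0.51 and -0.54 for LAMC3. The sign turned with the dye for both, and also for LAMC1. LAMA3 was above background in no channel.

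Fibronectin, the soluble and fibrillar matrix protein bound by alpha 5 beta 1, was detected in all 8 channels by 2 of its 3 probes. Probe EMPV1_25942 had log2 intensities of 10.39, 10.32, 10.46 and 10.33 in the high NEFA pools, against 10.50, 10.10, 10.64 and 10.99 in the control pools. Its ratio was -0.18 ± 0.14 (unadjusted p 0.223). Probe EMPV1_34984 had 9.78, 10.56, 9.46 and 9.99 in the high NEFA pools, against 9.87, 9.73, 9.70 and 10.13 in the control pools. Replicate 2 stood apart for this probe, with an array ratio of 0.83 where the others had -0.09, -0.24 and -0.14. The fitted ratio was 0.09 ± 0.16 with replicate 2 and -0.14 ± 0.16 without it. The third FN1 probe was above background in no channel.

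Among the receptors, ITGA5, ITGA6 and ITGB1 were detected in all 8 channels and had ratios between -0.12 and 0.13. ITGA5, the alpha chain of the fibronectin receptor, had log2 intensities of 8.69, 9.05, 9.14 and 8.97 in the high NEFA pools, against 8.93, 9.01, 9.18 and 9.21 in the control pools. Its ratio was -0.12 ± 0.13, with a 95% interval of -0.41 to 0.17. ITGA6, the alpha chain of laminin receptors, had 9.24, 9.64, 9.61 and 9.57 in the high NEFA pools, against 9.17, 9.29, 9.73 and 10.06 in the control pools. Its ratio was -0.05 ± 0.13, with a 95% interval of -0.35 to 0.25. ITGB1, the beta chain of both, had 2 probes of like result. Probe EMPV1_05725 had 12.85, 12.49, 13.16 and 13.42 in the high NEFA pools, against 12.77, 12.69, 13.03 and 12.98 in the control pools, and a ratio of 0.11 ± 0.13. Probe EMPV1_30532 had 8.38, 8.34, 8.67 and 8.38 in the high NEFA pools, against 8.47, 8.28, 8.58 and 7.92 in the control pools, and a ratio of 0.13 ± 0.13. Each probe was higher in the high NEFA pool on 3 of 4 arrays, and the 95% intervals were -0.18 to 0.41 and -0.17 to 0.42. These intervals do not show that the receptor chains were alike in the 2 kinds of pool.

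ITGA2B, the alpha chain known as the platelet fibrinogen receptor, had the most negative ratio of all members. Its probe EMPV1_07652 had log2 intensities of 9.84, 9.34, 9.77 and 9.69 in the high NEFA pools, against 10.82, 9.44, 10.21 and 9.95 in the control pools. The high NEFA value was the lower one on every array, with array ratios of -0.98, -0.10, -0.44 and -0.26. The fitted ratio was -0.45 ± 0.16 (unadjusted p 0.0189, adjusted p 0.764 by limma), with a 95% interval of -0.80 to -0.09. It was -0.45 ± 0.11 with mean pixel intensity, and -0.45 ± 0.19 without the dye term (unadjusted p 0.0531 by limma). With 1 array left out it was -0.23 ± 0.16, -0.67 ± 0.16, -0.40 ± 0.20 and -0.49 ± 0.20 without replicates 1 to 4 in turn, the smallest without replicate 1. A second probe, EMPV1_06523, was also lower on every array, at -0.23 ± 0.13 (unadjusted p 0.0959). The third, EMPV1_02956, above background in all 8 channels, had 0.08 ± 0.13, and was higher in the high NEFA pool on 3 of 4 arrays.

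The other integrin alpha chains had smaller ratios. ITGA3, a laminin receptor chain, had -0.21 ± 0.12, ITGA1, a collagen receptor chain, 0.11 ± 0.15, and ITGA9 0.05 ± 0.13. ITGA10, another collagen receptor chain, had the widest range over arrays of the tested alpha probes, with log2 intensities of 8.36, 8.78, 8.47 and 8.39 in the high NEFA pools, against 8.00, 8.20, 8.84 and 8.46 in the control pools. Its array ratios of 0.36, 0.58, -0.37 and -0.07 turned sign with the dye, and the fitted ratio was 0.12 ± 0.13 (unadjusted p 0.360). Of 7 alpha chain probes below the filter, ITGA7 was detected in 3 of 4 high NEFA channels and in 0 of 4 control channels. For this laminin receptor chain of muscle, the mean intensity was 1.13-fold higher in the high NEFA pools. That is a plain difference of means, as for COL11A2, with a ratio of -0.35 on replicate 2. ITGA2 and ITGA4 were above background in no channel, ITGA11 in 1 of 4 of each kind, ITGAE in 1 of 4 high NEFA channels, and ITGA8 and ITGAL in 1 of 4 control channels.

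ITGB5, whose product pairs with alpha V to bind vitronectin and osteopontin, was above background in all 8 channels. Its log2 intensities were 10.79, 10.89, 10.57 and 10.86 in the high NEFA pools, against 10.85, 10.41, 11.71 and 11.67 in the control pools. The high NEFA pools lay close together, and the control pools of replicates 3 and 4, labelled in Cy3, stood above those of replicates 1 and 2. The array ratios were -0.07, 0.48, -1.14 and -0.81, with a fitted ratio of -0.39 ± 0.14 (unadjusted p 0.0218, adjusted p 0.764 by limma). Its dye coefficient was -0.59 ± 0.14. Within the Cy3 orientation the mean ratio was 0.21 and within the Cy5 orientation it was -0.98. The ratio was -0.27 ± 0.08 with mean pixel intensity. It was -0.25 without replicate 1 and -0.30 without replicate 3, where the unadjusted p by limma was 0.140 and 0.123. Without the dye term the unadjusted p of ITGB5 by limma was 0.208. Under all other ways of processing tried it was below 0.05.

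ITGB3, another partner of alpha V, had 2 tested probes, both with a sign that turned with the dye. Probe EMPV1_27827 had the widest range of all tested members. Its log2 intensities were 6.80, 6.54, 8.12 and 8.05 in the high NEFA pools, against 7.53, 7.71, 7.05 and 6.48 in the control pools, and a dye coefficient of 1.13 ± 0.14. The median local background around its spot was 195, 240, 49 and 48 in the high NEFA channels, against 57, 55, 155 and 151 in the control channels, so it was raised in Cy3 on every array. The fitted ratio was 0.19 ± 0.14. It was 0.35 ± 0.15 when a single background was used for each channel, and -0.04 ± 0.17 with plain subtraction of the local background. Probe EMPV1_16395 had 7.95, 8.09, 8.19 and 8.18 in the high NEFA pools, against 8.35, 8.32, 8.06 and 7.89 in the control pools, and a fitted ratio of -0.05 ± 0.13 (unadjusted p 0.685).

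ITGB7, a beta chain of lymphocyte integrins, had 3 tested probes, at -0.22 ± 0.14, -0.01 ± 0.13 and 0.0037 ± 0.13, and 1 more probe detected in 1 of 4 control channels. ITGB8 was detected in 0 of 4 high NEFA channels and in 2 of 4 control channels, and ITGB4, the beta chain of hemidesmosomes, in no channel. The array ratios of ITGB8 were 0.11, 0.15, -0.39 and -0.70, so their sign turned with the dye. Of the genes matched by letters only, COL4A3BP had -0.06 ± 0.15 and -0.03 ± 0.13 for its 2 probes, and both ITGBL1 probes were below the filter.

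**Figure D3:**
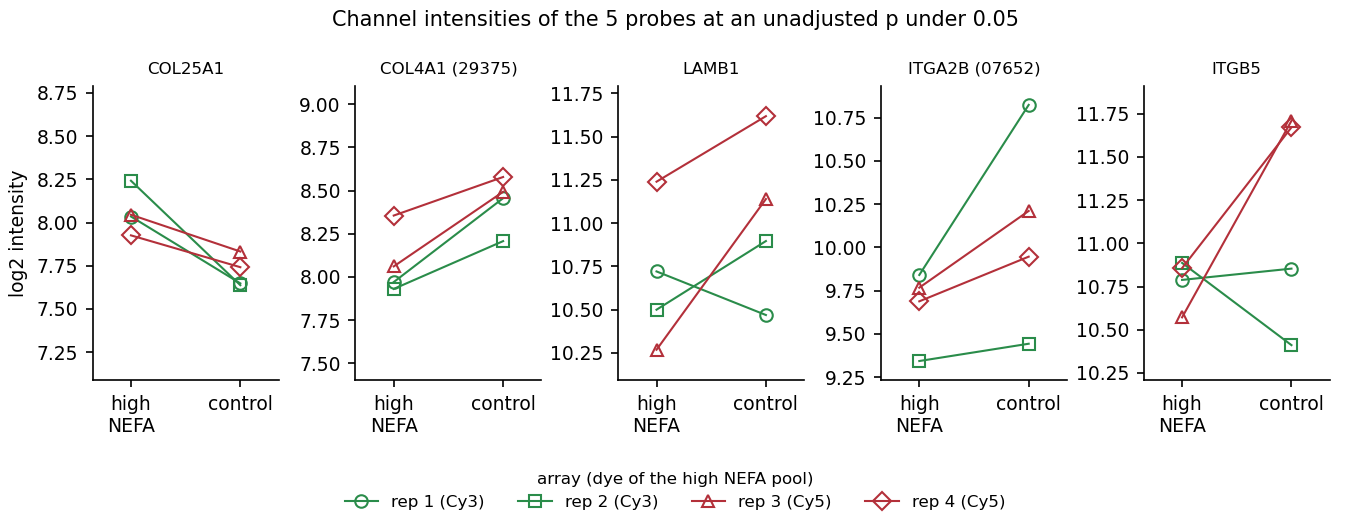
Log2 intensity of the high NEFA (left) and control (right) channel of each array for the 5 probes at an unadjusted p under 0.05, each panel spanning the same number of log2 units. Lines join the 2 channels of an array, green with the high NEFA pool in Cy3 and red with it in Cy5. All 4 lines slope the same way for COL25A1, COL4A1 EMPV1_29375 and ITGA2B EMPV1_07652, while replicate 1 of LAMB1 and replicate 2 of ITGB5 run the other way.

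The sign of the ratio was the same on all 4 arrays for 4 of 34 tested members (COL25A1, COL4A1 EMPV1_29375 and 2 ITGA2B probes), against 7.82% of all tested probes. For 11 of 34 members (32.4%) both arrays of one dye orientation had one sign and both of the other orientation the opposite sign, against 41.6% of all tested probes. The dye coefficient had an unadjusted p under 0.05 for 9 of 34 members (26.5%), against 37.8%. For the 11 members the fitted ratio is what remains between values of opposite sign.

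**Figure D4:**
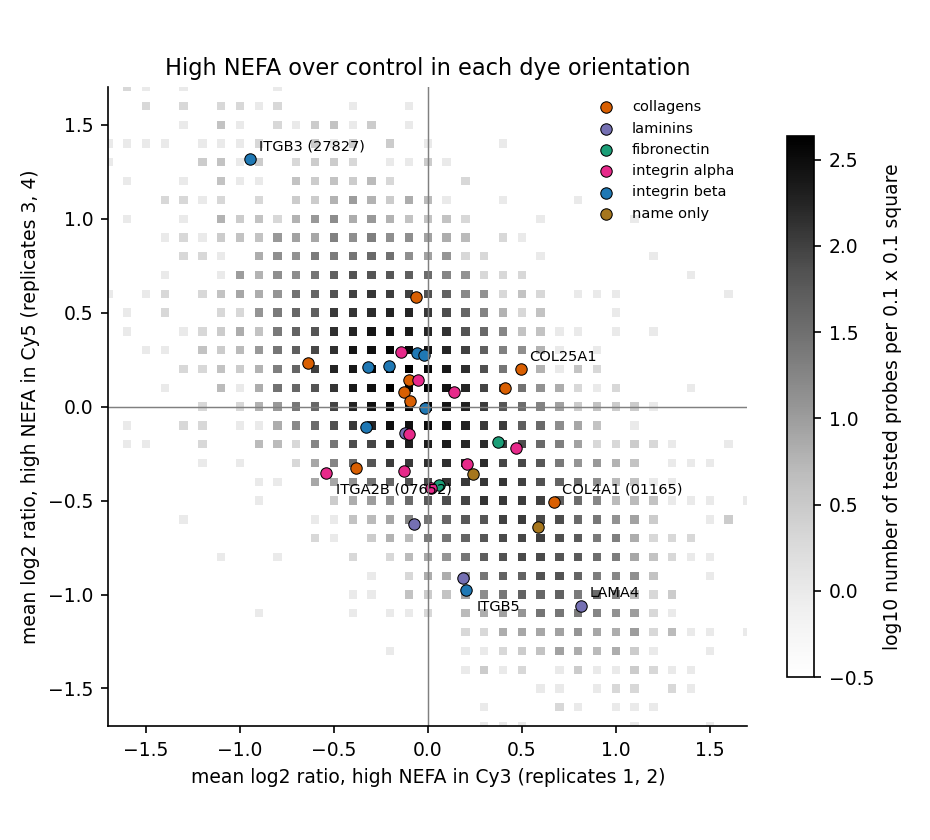
Mean log2 ratio of high NEFA over control with the high NEFA pool in Cy3 (horizontal, replicates 1 and 2) against that with it in Cy5 (vertical, replicates 3 and 4). Grey squares count all tested probes on a log scale, and squares beyond the axes are not drawn. Coloured points are the 34 tested members by family. LAMA4 lies in the lower right and ITGB3 EMPV1_27827 in the upper left, where the sign turns with the dye, and ITGA2B EMPV1_07652 and COL25A1 lie in the corners where both orientations share a sign.

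Of 7 genes with several tested probes, 5 had fitted ratios of both signs: ITGA2B, COL4A1, FN1, ITGB3 and ITGB7, where the positive ratio of ITGB7 was 0.0037 ± 0.13. The gap between the highest and the lowest ratio was 0.52 for ITGA2B, 0.43 for COL4A1, 0.27 for FN1, 0.24 for ITGB3 and 0.22 for ITGB7. ITGB1 and COL4A3BP had gaps of 0.01 and 0.03. For COL4A1 and ITGA2B the gap was larger than the ratio of the probe at an unadjusted p under 0.05. The difference between probes was not tested, and with SEs of 0.13 to 0.16 per ratio the smaller gaps do not show that the probes of FN1, ITGB3 or ITGB7 differed. Different probes of a gene can bind different transcripts, and which each probe binds was not tested.

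**Figure D5:**
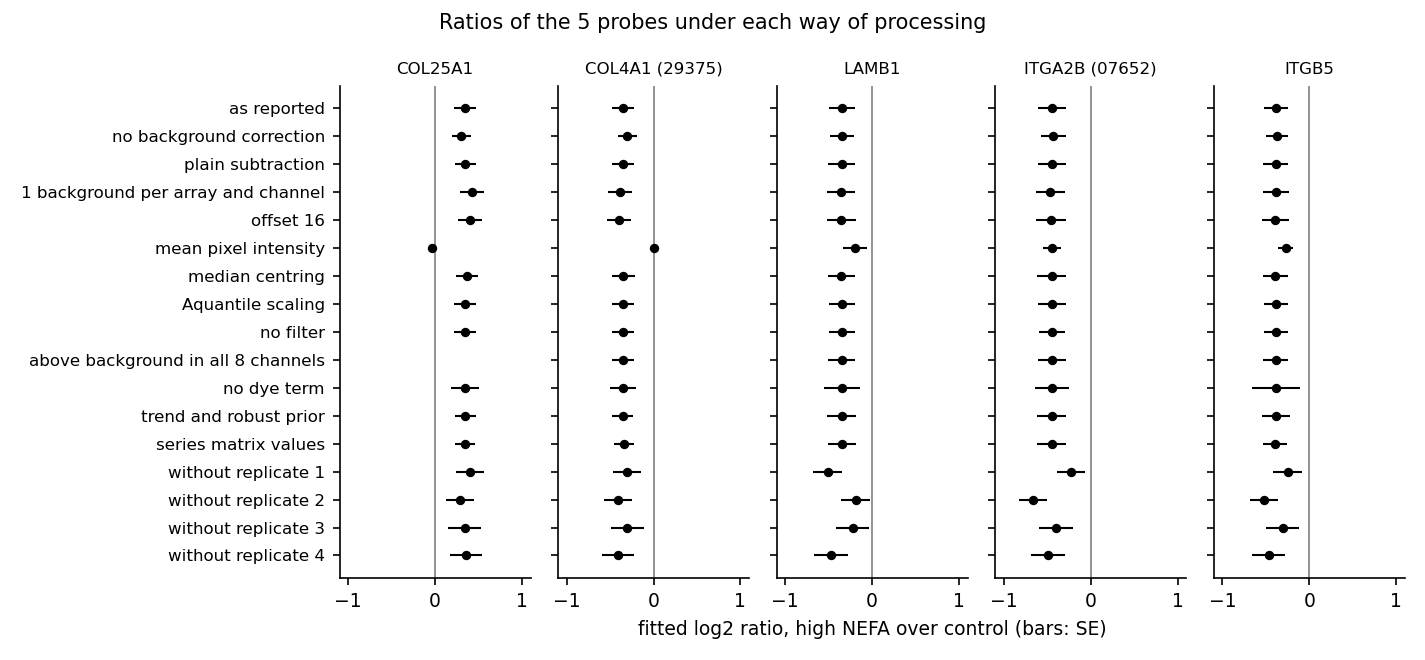
Fitted log2 ratio with its SE for the 5 probes of unadjusted p under 0.05, under each way of processing. With mean pixel intensity COL25A1 lies at -0.04 and COL4A1 EMPV1_29375 at -0.00026, while ITGA2B EMPV1_07652 and ITGB5 lie at -0.45 and -0.27. COL25A1 has no value where all 8 channels had to be above background.

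Genes that work with these chains showed no called difference either. Each gene here is represented by its tested probe of highest mean intensity, and 6.41% of 6228 genes with a tested probe had an unadjusted p under 0.05. Of 7 further basement membrane genes, 2 had positive and 5 negative ratios, with a median of -0.02. PXDN, the peroxidase that crosslinks collagen IV, had -0.38 ± 0.13 (unadjusted p 0.0178) and was lower on all 4 arrays, though detected in 1 of 4 high NEFA channels and in 4 of 4 control channels. NID2, which links laminin to collagen IV, had -0.26 ± 0.13, and HSPG2, the proteoglycan perlecan, -0.01. Of 11 genes for collagen folding, modification and crosslinking, 5 were positive and 6 negative, with a median of -0.0044. The crosslinking oxidase LOXL4 had -0.42 ± 0.12 (unadjusted p 0.00740 by limma), lower on all 4 arrays, and SEC31A, a coat protein for secretion, -0.17 ± 0.13. The array ratios of SEC31A, 0.42, 0.15, -0.55 and -0.69, turned sign with the dye.

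Of 10 matrix proteases and inhibitors, 8 were positive, with a median of 0.05. MMP14, a membrane-bound protease, had 0.51 ± 0.18 (unadjusted p 0.0188), with array ratios of 0.12, -1.04, 1.32 and 1.64 and was detected in 1 of 4 high NEFA channels and in 3 of 4 control channels. TIMP2, a protease inhibitor, had 0.25 ± 0.14, with array ratios of -0.24, -0.05, 0.36 and 0.91 that turned sign with the dye. Of 16 proteins of the adhesion complexes at integrin tails, 9 were positive and 7 negative, with a median of 0.01. TNS3, an adaptor between integrins and actin, had 0.43 ± 0.13 (unadjusted p 0.00825), higher on all 4 arrays, and the kinase PTK2B 0.29 ± 0.13.

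Of 21 other integrin ligands and matrix receptors, 11 were positive and 10 negative, with a median of 0.03. ICAM1, a ligand of leukocyte integrins, had -0.65 ± 0.14 (unadjusted p 0.00106), and TNXB, a tenascin of connective tissue, 0.75 ± 0.26, of which replicate 1 had 1.96 and replicate 2 -0.07. SPP1, the osteopontin gene, had 0.20 (unadjusted p 0.151). No gene of these lists passed the adjusted threshold.

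Markers of the cell types that make or meet this matrix were measured beside it. Of 9 tested granulosa and stromal markers, 5 were positive and 4 negative (median 0.07), and 0 had an unadjusted p under 0.05. Their summed intensity was 5418 to 8534 over the high NEFA pools and 5333 to 7926 over the control pools. GATM had 0.25 ± 0.13 and LHCGR -0.20 ± 0.14. The array ratios of GATM were -0.54, -0.45, 0.82 and 1.15, so their sign turned with the dye. Of 7 primitive endoderm genes, 5 were positive (median 0.01), with DAB2 at 0.28 ± 0.12 (unadjusted p 0.0467) and APOA1 at -0.35 ± 0.17, and sums of 18030 to 23263 in the high NEFA pools and 14988 to 24487 in the control pools. Of 8 trophectoderm genes, 6 were positive (median 0.08). Of the 8, 3 had an unadjusted p under 0.05, against 6.41% of all genes with a tested probe. DLX3 had 0.57 ± 0.13, with array ratios of 1.31, 0.98, -0.10 and 0.07, and was detected in 2 of 4 channels of each kind. TFAP2C had 0.37 ± 0.15, with array ratios of 1.11, 0.35, 0.05 and -0.03. The third, GATA3, had 0.31 ± 0.13, with array ratios of 0.32, 0.08, 0.50 and 0.33, and was detected in 4 of 4 channels of each kind. The sums were 51023 to 64170 in the high NEFA pools and 43091 to 63573 in the control pools. The ranges overlapped for each list, and their part in the ratios of the members was not tested.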

How the data were processed

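The authors deposited scanner files that hold, for every spot and its surroundings, median and mean pixel intensities, per the file headers, neither subtracted nor normalized, with a mark on spots to be ignored. They also deposited a matrix of log2 ratios, made with limma per the submitters' processing notes, without version or settings. Against plainly subtracted, loess and quantile normalized log2 Cy5 over Cy3 its columns correlated at 0.992 to 1.000 over all probes, so it runs Cy5 over Cy3, with column medians of 0.0022 to 0.016. It was turned by dye and used only as an alternative. Image software and array design build are not given in the sources used here.

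Median intensities were corrected with normexp (offset 50) and normalized by loess within arrays, with control spots at weight 0, in limma 3.58.1 under R 4.3.3. Probes above background in at least 4 of 8 channels were tested. limma fitted exposure, signed by dye, and a dye intercept, with eBayes and Benjamini-Hochberg adjustment over 24524 probes. The median SE was 0.13, on 2 residual and 7.87 prior degrees of freedom. The number of arrays limits the precision. No member spot was marked.

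The members and gene lists were chosen with earlier results of these data known. Full values are given for members at an unadjusted p under 0.05, the widest-ranging probe of each family, and the tested COL4A, LAMB1, FN1, ITGA5, ITGA6, ITGB1, ITGB3 and ITGB5 probes. The other tested members get ratio and SE. In each other list the 2 genes of smallest p are named, with HSPG2, SPP1 and GATA3 added after their values were seen. Symbols came from the platform table, joined by spot number, and all 60 are in the RefSeq pig gene table.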

Additional observations from a re-analysis of the deposited data

Results flagged for a closer look

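One tested member had an array far from the others. For the FN1 probe EMPV1_34984, replicate 2 had a log2 ratio of 0.83, while the other arrays had -0.09, -0.24 and -0.14, and the gap exceeded the limit of Dixon's test for 4 values at 95%. It was 1 of 34 tested members, and chance flags about 1 in 20 groups.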

How the results depend on the processing

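No member passed the adjusted threshold under any of the 16 alternatives. The number of members at an unadjusted p under 0.05 was 9 of 76 (11.8%) without the filter, against 7.22% of all probes, and 0 without the dye term, against 0.824%, and 0 to 4 with 1 array left out. It was 0 without replicate 3, against 4.96% of all probes, and 4 of 34 (11.8%) without replicate 1, 2 or 4, against 9.25%, 9.72% and 5.35%. The 1.5-fold threshold took 0 to 1 members with 1 array left out. The median member ratio was -0.0935 to -0.00058 with 1 array left out, the lowest without replicate 2. COL25A1 turned to -0.0399 with mean pixel intensity. The ratios themselves could move under 11 alternatives, and there 13 of 176 values of the 16 fully described probes changed sign, 6 of them among the 16 with mean pixel intensity. Apart from COL25A1, these had an unadjusted p above 0.05 both ways. The other 5 alternatives left the ratios as they were. The cause was not tested. Fits without 1 array leave 1 array alone in its dye orientation, which is assumed to vary like the rest. The fitted ratios are paired by array, since each array ratio sets the 2 pools of 1 array against each other. The overlap of ranges and the summed intensities ignore this pairing, and the intensities behind them were not scaled between arrays. Dim signal limits the collagens most, since 24 of 33 probes were below the filter.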
